A study of Homo sapiens with 3 samples.

Results

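Transcripts of negative feedback regulators of the mitogen-activated protein kinase (MAPK) pathways were followed in T47D cells, a long-established line from a human breast carcinoma with estrogen receptor. The genes were chosen by name, and the list was made with earlier results of these data known. It held 32 dual-specificity phosphatases, Sprouty and SPRED inhibitors, PEA3 transcription factors and other MAPK feedback genes. All probe sets whose single gene symbol was 1 of the listed genes were used. Of the 32 genes, 31 were measured, through 68 probe sets, among 19775 genes in all. The remaining gene, MAP2K3, a kinase that activates p38, was named only by 3 probe sets that carry a further symbol, and it was left out. The cultures of the 3 groups were first kept for 4 h in medium whose 10% serum had been stripped with charcoal. The vehicle group then received 0.1% ethanol for 3 h, the estradiol group 1 uM estradiol, the main natural estrogen, and the tamoxifen group 1 uM tamoxifen, a selective modulator of the estrogen receptor. Each group is 1 culture hybridised to 1 Affymetrix array, so no difference has a replicate check and no test between groups was possible.

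MAPK cascades relay growth factor and stress signals through ERK, JNK and p38 kinases. Dual-specificity phosphatases remove the activating phosphates from these kinases, while Sprouty and SPRED proteins act upstream, between receptors and RAF. Many of these genes, and the PEA3 factors, are themselves transcribed in response to ERK activity, and their messages are often short-lived. In breast cancer cells they are commonly read as a transcriptional output of the pathway.

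The deposited values are log2 expression values from which a centre per probe set had been taken, so that differences between arrays were kept and levels were not. The cell type could therefore not be checked against the levels of its markers, and the levels of genes cannot be compared with each other. In such bulk RNA, fewer cells with a transcript and less transcript per cell cannot be told apart. Differences below are log2 differences relative to the median difference of all genes, which was -0.0057 between estradiol and vehicle. The corresponding medians were 0.10 between tamoxifen and vehicle and 0.11 between tamoxifen and estradiol. A gene's value is the median over its probe sets. Differences of probe sets of the same gene scattered around the gene mean with a pooled SD of 0.45, 0.51 and 0.27 in the 3 comparisons. This SD describes how far probe sets on the same 2 arrays disagree. It does not measure error between arrays or cultures, which all probe sets of a comparison share. The deposited values of all probe sets had an SD of 0.19 on the vehicle, 0.41 on the estradiol and 0.44 on the tamoxifen array. Control probe sets differed between the arrays. Those of 18S ribosomal RNA were 1.86 higher on the estradiol and 1.96 higher on the tamoxifen array, and ACTB (beta actin) differed in its 3' minus 5' signal by -0.78 and -0.77 (as deposited). The tamoxifen array differed from both others in the first set of bacterial hybridisation spikes, with a median of -3.23 against vehicle and -3.16 against estradiol, where estradiol minus vehicle was -0.076. Against vehicle, the 24 probe sets of polyadenylated spikes differed by a median of 0.70 on the estradiol array (from 0.22 to 1.23). On the tamoxifen array their median difference from vehicle was 0.495 (from -0.94 to 1.12). These values stand beside the comparisons below, and their part in them was not tested.

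As medians over probe sets, DUSP4, DUSP5 and DUSP6 were the members at least 2-fold lower on both treated arrays than on the vehicle array. PHLDA1 was the member that lay at least 2-fold higher on the estradiol array. With probe sets averaged, DUSP6 fell short of 2-fold in both comparisons and DUSP4 did so for tamoxifen. For DUSP6, 1 of 3 probe sets lay above 0 in both comparisons. DUSP4 and DUSP5 encode nuclear MAPK phosphatases, DUSP6 the main cytoplasmic ERK phosphatase, and PHLDA1 a protein with a pleckstrin homology-like domain that growth factor signalling induces. The promoter letters of 2 of these genes and of DUSP1 are shown because DUSP6 and PHLDA1 passed the 2-fold cutoff in opposite directions, and because DUSP1, chosen after its values were seen, had probe sets that differed most. Each run holds the 250 bases before the RefSeq gene start in the direction of the gene, on the minus strand of GRCh38.p14, at chr12:89352502-89352751 for DUSP6, chr12:76031777-76032026 for PHLDA1 and chr5:172771196-172771445 for DUSP1. Capitals mark matches, on either strand, to the cyclic AMP response element TGACGTCA, its half-site TGACG, the ETS site CCGGAAGT, the AP-1 site TGANTCA, the nuclear receptor half-site AGGTCA, the E-box CACGTG or the GC box GGGCGG.
DUSP6: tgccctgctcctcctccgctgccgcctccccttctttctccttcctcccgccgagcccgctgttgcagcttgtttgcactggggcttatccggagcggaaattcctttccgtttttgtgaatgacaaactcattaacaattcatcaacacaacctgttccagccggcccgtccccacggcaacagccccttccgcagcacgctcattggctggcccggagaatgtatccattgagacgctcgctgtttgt
PHLDA1: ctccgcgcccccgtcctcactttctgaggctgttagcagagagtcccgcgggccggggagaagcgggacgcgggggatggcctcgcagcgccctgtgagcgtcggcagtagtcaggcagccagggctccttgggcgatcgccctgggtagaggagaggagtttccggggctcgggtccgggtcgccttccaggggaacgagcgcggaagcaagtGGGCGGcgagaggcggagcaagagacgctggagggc
DUSP1: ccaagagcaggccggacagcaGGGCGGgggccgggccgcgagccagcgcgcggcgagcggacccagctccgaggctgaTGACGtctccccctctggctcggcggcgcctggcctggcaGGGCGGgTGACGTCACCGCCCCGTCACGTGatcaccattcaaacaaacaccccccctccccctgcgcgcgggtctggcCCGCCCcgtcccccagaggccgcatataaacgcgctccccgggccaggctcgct

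The DUSP6 run held none of these letters, the PHLDA1 run a GC box, and the DUSP1 run a full cyclic AMP response element whose first base lay 125 bases before the start, beside further half-sites, an E-box that overlaps a half-site, and GC boxes. RefSeq windows of 300 bases (250 before and 50 after the start) were matched for 25 of the 31 measured members, as 39 windows in all. DUSP4, DUSP5, DUSP12, DUSP26, ETV4 and ETV5 had none, so the shares below leave out 2 of the 3 members that were at least 2-fold lower. The full cyclic AMP response element was present in 3 of the 39 windows (7.69%), those of DUSP1, DUSP8 and EPHA2, against 1.85% of all 35116 windows. Its half-site, which the full element contains, was in 30.8% of member windows and 24.6% of all. The ETS site was in 0 of 39 windows against 4.14% of all, the AP-1 site in 5.13% against 7.71%, and the nuclear receptor half-site in 20.5% against 13.8%. GC boxes were in 76.9% of member windows against 45.0%, and the median GC content was 64.3% against 58.7%. Such matches describe the letters of these windows and nothing about binding.

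The first comparison asks which feedback genes differed between estradiol and vehicle after 3 h. At least 2-fold lower values were found for 3 of 31 members, against 1.68% of all genes, and at least 2-fold higher values for 1 of 31, against 1.62%. At 1.5-fold the counts were 5 lower, against 8.74% of all genes, and 2 higher, against 6.42%. The median of the 31 members was -0.087, with 20 below and 11 above the all-gene median, and the median absolute difference was 0.33 for members and 0.22 for all genes.

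The second comparison sets tamoxifen, at the molar dose of estradiol and after 3 h, against vehicle. Again 3 of 31 members lay at least 2-fold lower, against 1.79% of all genes, and 0 of 31 at least 2-fold higher, against 1.65%. At 1.5-fold, 4 members were lower, against 8.87% of all genes, and 3 higher, against 6.35%. The median was -0.074, with 19 members below and 12 above 0. Both comparisons use the same vehicle array and are therefore not independent of each other.

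**Figure D1:**
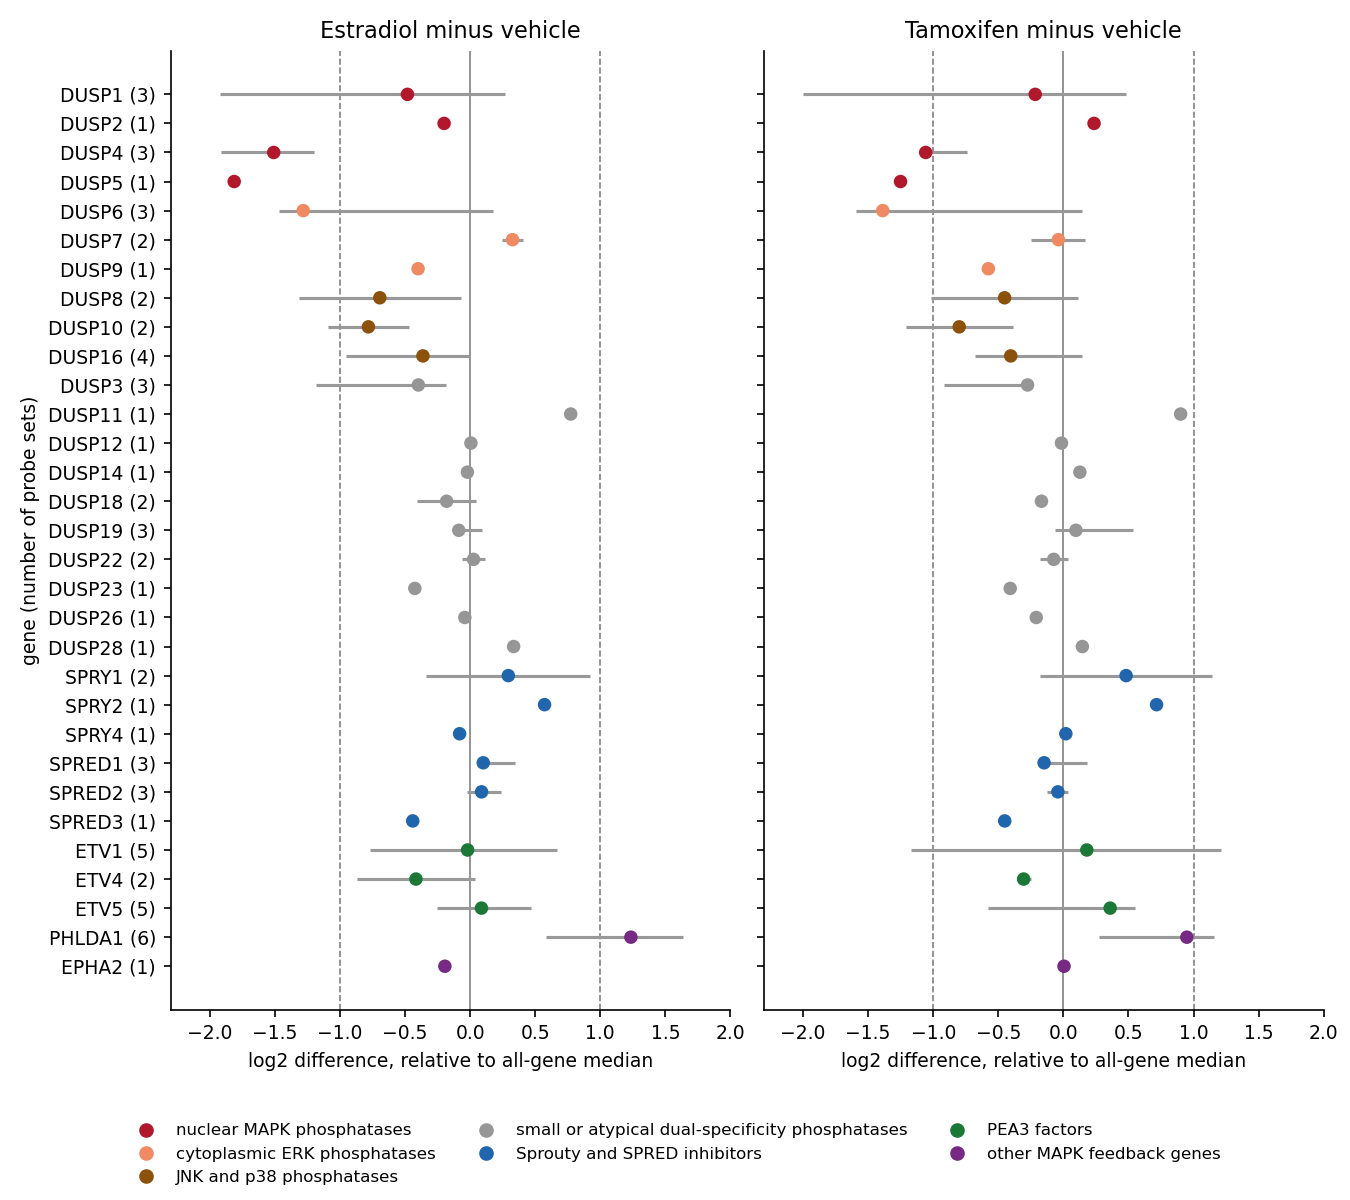
Log2 difference of each of the 31 measured genes from vehicle, relative to the all-gene median, for estradiol (left) and tamoxifen (right). Points are medians over probe sets, coloured by role; grey bars span the lowest to the highest probe set and are not errors between samples; dashed lines mark 2-fold. DUSP4, DUSP5 and DUSP6 lie left of the lower line in both panels, and PHLDA1 lies right of the upper line for estradiol.

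Among the nuclear phosphatases, DUSP5, which acts on ERK, was the lowest member on the estradiol array. Its single probe set read 0.62 on the vehicle, -1.20 on the estradiol and -0.53 on the tamoxifen array (centred log2 values as deposited). The vehicle array was thus the highest and the estradiol array the lowest. Relative to the all-gene median, the difference from vehicle was -1.81 for estradiol, or 3.51-fold lower, the value at place 22 from the lowest of 19775 genes. For tamoxifen it was -1.25, or 2.38-fold lower, at place 119. With 1 probe set, no agreement within the gene could be examined.

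DUSP4, which acts on ERK and JNK, had 3 probe sets. They read 1.08, 0.66 and 0.88 on the vehicle array, -0.84, -0.55 and -0.63 on the estradiol array and 0.12, 0.024 and -0.070 on the tamoxifen array. In each probe set the order of the arrays was the one seen for DUSP5: vehicle highest, tamoxifen between, estradiol lowest. The gene's difference from vehicle was -1.51 for estradiol (2.84-fold lower), with all 3 probe sets past 2-fold. For tamoxifen it was -1.06 (2.08-fold lower), with 2 of 3 past 2-fold, and the gene fell short of 2-fold when its probe sets were averaged (-0.96) or left uncentred (-0.95).

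The other nuclear phosphatases differed less. DUSP2, known from activated lymphocytes, was at -0.20 for estradiol and 0.24 for tamoxifen. DUSP1, an early gene that acts on p38 and JNK, had a value of -0.48 for estradiol and -0.22 for tamoxifen, but its 3 probe sets were far apart. Probe set 201041_s_at read 2.06 on the vehicle array against 0.13 and 0.16 on the estradiol and tamoxifen arrays, relative differences of -1.92 and -2.003. Probe set 226578_s_at read -0.23, 0.028 and 0.35, a relative difference of 0.27 and 0.48. The remaining one, 201044_x_at, lay at -0.48 and -0.22. All 3 carry the suffix _s_at or _x_at, which marks probe sets that can match more than 1 transcript. Because the probe sets differed in sign, neither direction can be given to DUSP1 as a gene.

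Among the cytoplasmic phosphatases, which act mainly on ERK, DUSP6 was 2.43-fold lower on the estradiol array (-1.28) and 2.62-fold lower on the tamoxifen array (-1.39). Probe set 208891_at read 1.30 on the vehicle, 0.0094 on the estradiol and 0.012 on the tamoxifen array, and 208892_s_at read 1.28, -0.19 and -0.20. In both, the vehicle array stood above 2 treated arrays that nearly coincided. The third probe set, 208893_s_at, read 0.065, 0.24 and 0.31, so that it lay slightly higher on the treated arrays. The lower value of DUSP6 thus rests on 2 of its 3 probe sets. With probe sets averaged, DUSP6 was at -0.86 and -0.95 and no longer past 2-fold. DUSP7 was at 0.33 for estradiol and -0.038 for tamoxifen, and DUSP9 at -0.40 and -0.58.

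The phosphatases known for JNK and p38 all had gene values below 0 in both comparisons with vehicle. None was past 2-fold, against 3.31% of all genes for estradiol and 3.43% for tamoxifen. DUSP10 was at -0.78 for estradiol and -0.80 for tamoxifen. Its probe set 221563_at was past 2-fold in both (-1.09 and -1.21), and 215501_s_at was not (-0.47 and -0.39). DUSP8 was at -0.69 and -0.45, from 206374_at at -1.32 and -1.02 and 238594_x_at at -0.069 and 0.11. DUSP16 was at -0.36 and -0.40 over 4 probe sets. They ran from -0.96 to 0.0028 for estradiol and from -0.68 to 0.14 for tamoxifen, with 1 of 4 above 0 in each. Without probe sets of the suffix _s_at or _x_at, which left 28 members, DUSP8, DUSP10 and DUSP3 joined DUSP4, DUSP5 and DUSP6 past 2-fold for estradiol, and DUSP8 and DUSP10 did so for tamoxifen. The share of all genes past 2-fold was not computed for this setting.

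**Figure D2:**
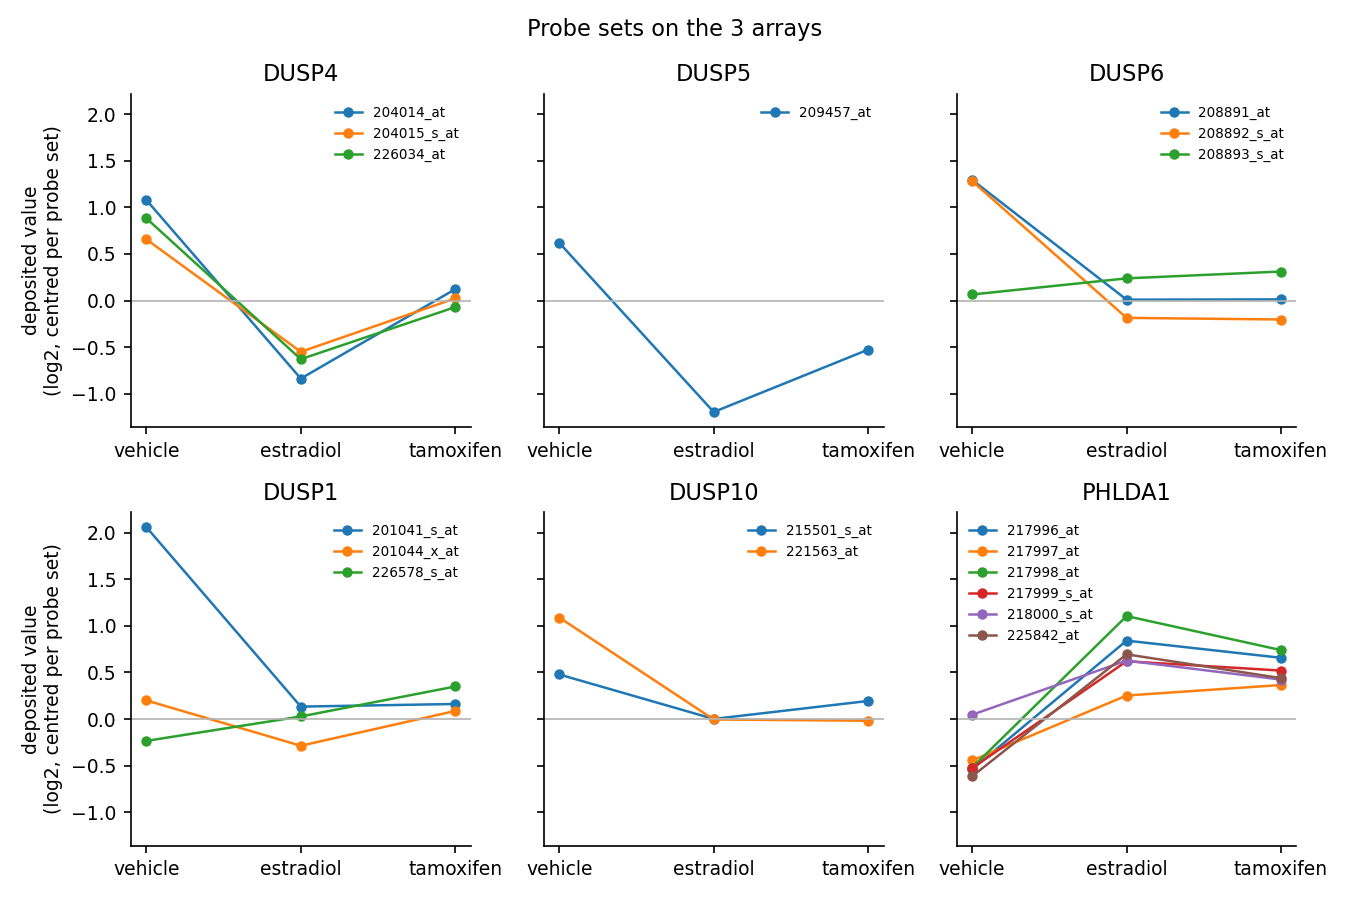
Deposited values (log2, centred per probe set) of each probe set of 6 genes on the vehicle, estradiol and tamoxifen arrays; a line joins the values of 1 probe set, and each point is 1 array. The 3 DUSP4 lines run together, whereas 1 of 3 lines of DUSP6 and 1 of 3 of DUSP1 rise where the others drop, and all 6 PHLDA1 lines are lowest on the vehicle array.

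The 10 small or atypical dual-specificity phosphatases, many of which have substrates other than MAPKs, had medians of -0.031 for estradiol and -0.045 for tamoxifen. Of these genes, 0 of 10 were past 2-fold, against 3.31% of all genes for estradiol and 3.43% for tamoxifen. At such shares, 0 of 10 is not particular to these genes. DUSP11, which acts on RNA ends, was the highest of them at 0.77 and 0.90 (1.71-fold and 1.87-fold higher), from a single probe set that read 0.055 on the vehicle, 0.82 on the estradiol and 1.06 on the tamoxifen array. As deposited, without centring, its tamoxifen difference was 1.004, just past 2-fold. DUSP23 was the lowest at -0.42 for estradiol and -0.41 for tamoxifen. DUSP3, which can act on ERK and JNK, followed at -0.40 and -0.28, with probe sets from -1.18 to -0.18 for estradiol. The others, DUSP12, DUSP14, DUSP18, DUSP19, DUSP22, DUSP26 and DUSP28, lay between -0.21 and 0.33 in both comparisons.

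The Sprouty and SPRED genes, whose products hold back RAS and RAF activation, were divided. SPRY2 was the highest at 0.57 for estradiol and 0.72 for tamoxifen, with array values of -0.0071, 0.56 and 0.81 for vehicle, estradiol and tamoxifen. SPRY1 was at 0.29 and 0.48, but its 2 probe sets differed in sign, 212558_at at 0.92 and 1.15 and 230212_at at -0.34 and -0.18. SPRED3 was the lowest at -0.44 and -0.45. SPRY4, SPRED1 and SPRED2 lay between -0.15 and 0.10. The medians of the 6 genes were 0.095 and -0.012. Past 2-fold were 0 of 6, against 3.31% of all genes for estradiol and 3.43% for tamoxifen, so this count is not particular to them.

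The PEA3 factors, ETS family activators that ERK signalling induces, showed no shared direction. ETV4 was at -0.42 for estradiol and -0.31 for tamoxifen, but its 2 probe sets were at 0.039 and -0.87 for estradiol. ETV5 was at 0.087 and 0.36, over 5 probe sets from -0.58 to 0.55 for tamoxifen. Without the suffixed probe sets the sign turned for ETV4 in the estradiol comparison (0.033) and for ETV5 in both (-0.089 and -0.12). It also turned for ETV1 in the tamoxifen comparison (from 0.18 to -0.45). ETV1 was at -0.019 and 0.18 as the median of 5 probe sets that ran from -1.17 to 1.21 for tamoxifen, 2 of them past 2-fold in opposite directions. The spread between the probe sets of ETV1 was thus wider than any difference of a member gene between the tamoxifen and vehicle arrays.

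PHLDA1, at 1.24 for estradiol (2.35-fold higher, place 153 from the highest of all genes) and 0.95 for tamoxifen (1.93-fold higher, place 369), was the highest member in both comparisons. Over its 6 probe sets the median array values were -0.52 for vehicle, 0.66 for estradiol and 0.48 for tamoxifen. All 6 lay above 0 in both comparisons, from 0.59 to 1.63 and from 0.27 to 1.16, with 4 and 2 of them past 2-fold. The tamoxifen value was past 2-fold without centring (1.05) and without the suffixed probe sets (1.02). EPHA2, a receptor tyrosine kinase of the ephrin system and an ERK target, was at -0.19 and 0.0048.

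Probe sets of a gene did not always share a side of 0. Of the 18 members with several probe sets, 7 had all of them on the same side of 0 for estradiol minus vehicle (38.9%) and 6 for tamoxifen minus vehicle (33.3%), against 45.2% and 41.4% of all such genes. Counted as probe sets, 10 of 68 (14.7%) were at least 2-fold lower for estradiol, against 2.33% of all, and 9 of 68 (13.2%) for tamoxifen, against 2.62%. On the higher side the counts were 4 of 68 (5.88%) in each, against 3.90% and 4.29%. Probe sets of the same gene share their transcript, and the shares describe these arrays only.

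The third comparison, tamoxifen against estradiol, does not involve the vehicle array. No member differed by 2-fold: 0 of 31 were higher, against 0.0253% of all genes, and 0 of 31 lower, against 0.202%. At 1.5-fold the counts were also 0 and 0, against 0.885% and 1.22%. The members ranged from -0.37 for DUSP7 to 0.56 for DUSP5, with a median of 0.020 and a median absolute difference of 0.14, against 0.13 for all genes. Of the nuclear phosphatases, none of which passed 1.5-fold, DUSP5 was at 0.56 (1.47-fold, place 221 from the highest), DUSP4 at 0.46 (1.38-fold, place 457) and DUSP2 at 0.43 (1.35-fold, place 581). DUSP1 was at 0.21, with 1 of its 3 probe sets below 0 (-0.087). All 3 DUSP4 probe sets were higher, from 0.44 to 0.85. The 3 cytoplasmic phosphatases lay below 0, DUSP7 at -0.37, DUSP9 at -0.18 and DUSP6 at -0.11, and without centring DUSP6 was at 0.0029. PHLDA1 was at -0.31, with all 6 probe sets below 0. In this comparison 18S ribosomal RNA differed by 0.043, and ACTB by 0.0058 in its 3' minus 5' signal. The first set of hybridisation spikes differed by a median of -3.16 (from -4.23 to -1.86), and the 24 probe sets of polyadenylated spikes by -0.15 (from -1.92 to -0.023). The differences of the members were all below the 2-fold cutoff, whereas those of the first spike set were past it. The pooled SD between probe sets of a gene was 0.27.

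**Figure D3:**
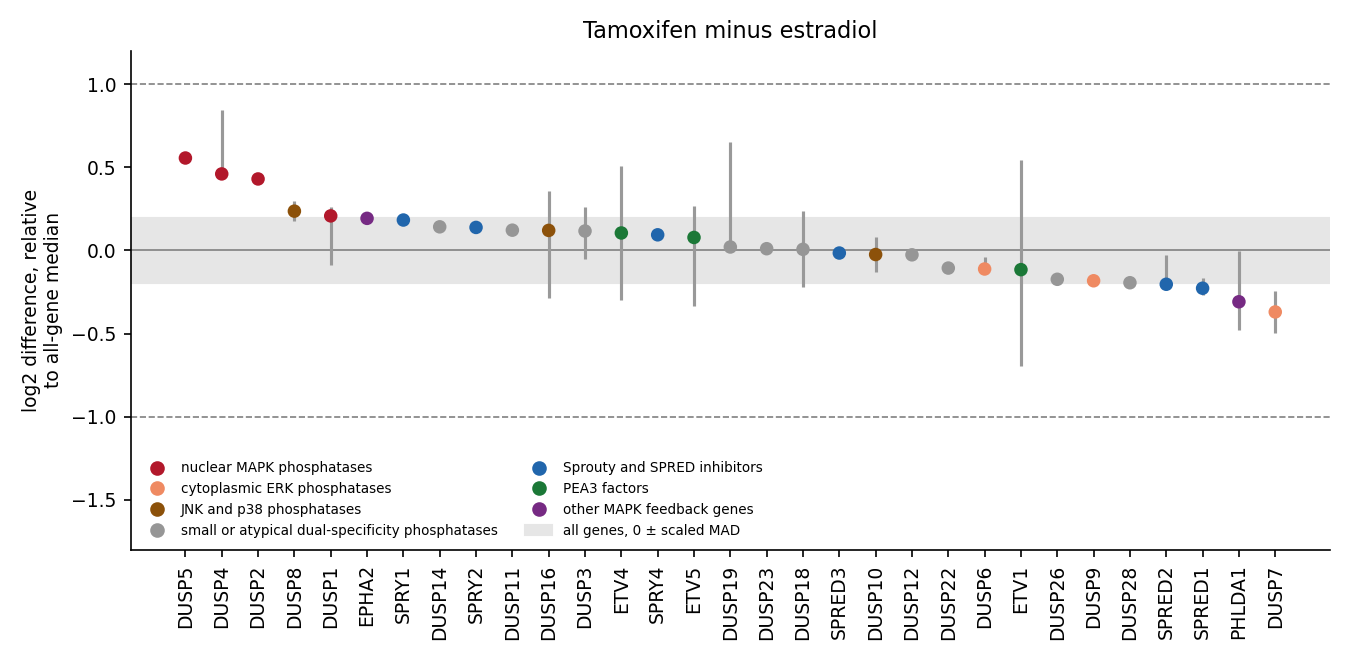
Log2 difference of each of the 31 genes between the tamoxifen and estradiol arrays, relative to the all-gene median and ordered from highest to lowest; points are medians over probe sets, grey bars span the lowest to the highest probe set, and the grey band is 0 plus or minus the scaled median absolute deviation of all genes (0.20). DUSP5, DUSP4 and DUSP2 are at the top, DUSP7 and PHLDA1 at the bottom, and none reaches the dashed 2-fold lines.

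Other genes of the pathway, in 8 lists of which 131 of 144 memberships were measured, gave the surroundings of these values. The lists, too, were made with earlier results of these data known. At least 2-fold differences were found for 3 higher and 7 lower for estradiol minus vehicle (7.63%, against 3.31% of all genes), 4 higher and 6 lower for tamoxifen minus vehicle (7.63% against 3.43%), and 0 higher and 2 lower between the treated arrays (1.53% against 0.228%). The core RAS-ERK cascade, of which 13 of 18 genes were measured, had medians of 0.33 and 0.37 against vehicle. Its 1 gene past 2-fold was MAP2K1, which encodes the ERK kinase MEK1, at 1.22 for estradiol and 0.80 for tamoxifen. Of 18 measured JNK, p38 and ERK5 kinases, MAP3K1, an upstream activator of JNK, was past 2-fold at 1.44 and 1.06, but its 2 probe sets were at 0.43 and 2.45 for estradiol.

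The 19 measured ERK-responsive early transcription factors were the list with most genes past 2-fold, 1 higher and 3 lower for estradiol (against 1.62% and 1.68% of all genes) and 1 higher and 5 lower for tamoxifen (against 1.65% and 1.79%). JUNB and JUN, subunits of AP-1, were lower at -1.87 and -1.63 for estradiol, and at -1.21 and -1.48 for tamoxifen. IER2, an early response gene, was lower at -1.38 for estradiol and -1.76 for tamoxifen. EGR1 was at -0.91 for estradiol and past 2-fold for tamoxifen (-1.18), while MYC was higher in both. KLF10, a Kruppel-like repressor, was 1 of the 2 genes that were at least 2-fold lower on the tamoxifen than on the estradiol array, at -1.001, and MYC was the other, at -1.04. Each has 1 probe set, and as deposited, without centring, both fell short of 2-fold. The estradiol and tamoxifen arrays read 0.48 and -0.41 for KLF10, and 1.71 and 0.78 for MYC. None of the 18 other negative regulators of RAS and receptor kinases, nor of the 18 other ETS factors, passed 2-fold in any comparison. The shares of all genes were 3.31%, 3.43% and 0.228% in the 3 comparisons, so these counts are not particular to the 2 lists. Among 17 other dual-specificity phosphatases, STYX, a catalytically inactive relative, was at 0.97 and 1.27, over 4 probe sets from -1.03 to 1.91 for tamoxifen.

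Of 17 other Eph receptors and ephrins, EFNA1, the ephrin A1 ligand of EPHA2, was lower at -1.39 for estradiol and -1.25 for tamoxifen, with array values of 1.16, -0.24 and 0.016 for vehicle, estradiol and tamoxifen. EPHB6 was at -1.11 and -0.86, and EPHA4 at 0.18 and 1.12. Of 11 kinases downstream of MAPKs, RPS6KA1, which encodes the ERK-activated kinase RSK1, and MKNK2, which phosphorylates a cap-binding translation factor, were past 2-fold for estradiol at -1.14 and -1.05. For tamoxifen they were at -0.87 and -0.76.

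**Figure D4:**
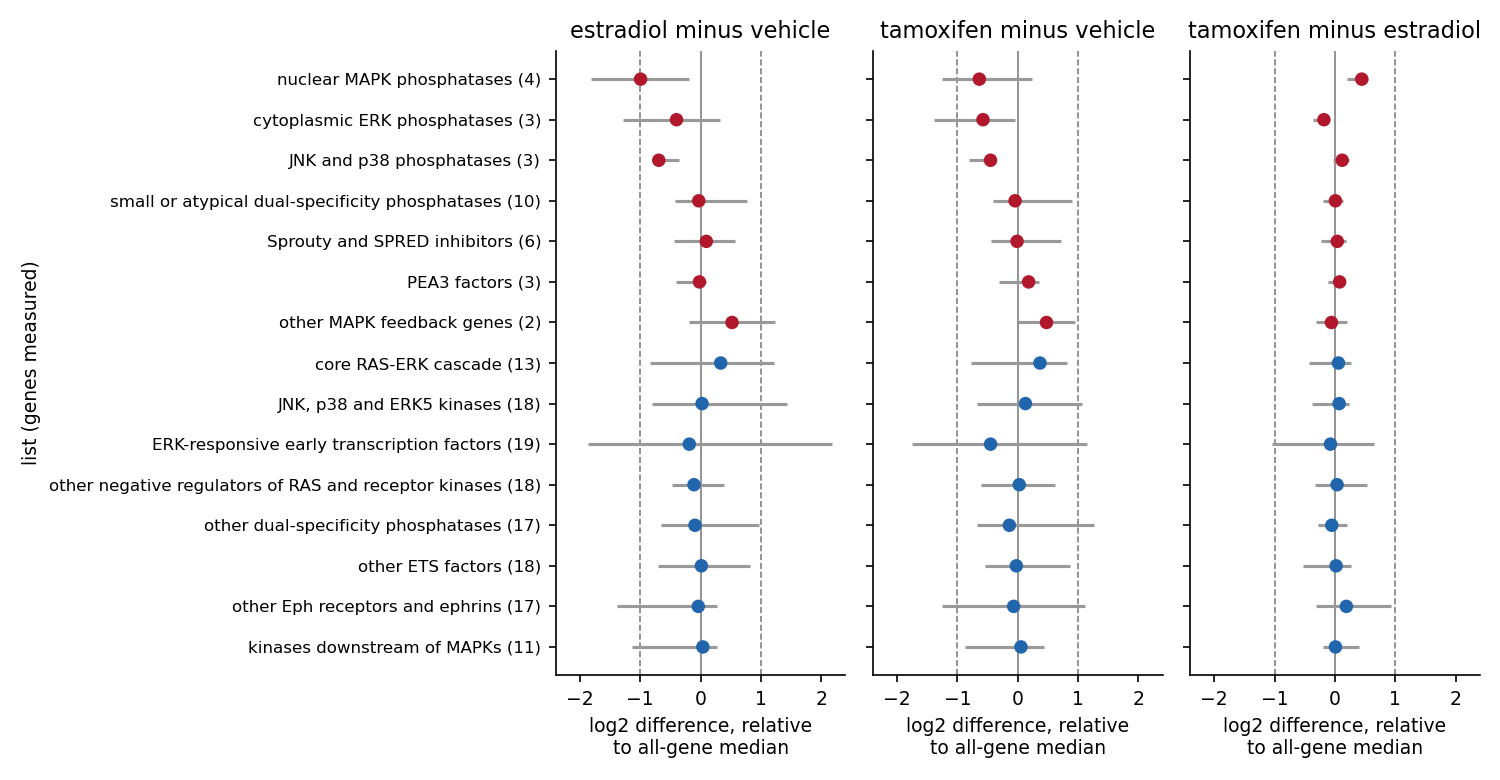
Median (point) and lowest to highest gene (grey bar) of the 7 role groups of the feedback genes (red) and of 8 lists of other pathway genes (blue), as log2 differences relative to the all-gene median in each comparison; dashed lines mark 2-fold and the numbers in brackets are genes measured. The nuclear, JNK and p38, and cytoplasmic phosphatase groups have medians from -0.99 to -0.40 for estradiol minus vehicle, and the small or atypical phosphatases one of -0.031.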

How the data were processed

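RNA of 3 T47D cultures was measured on 3 arrays of 54675 probe sets, 1 per group, and groups were taken from the treatment in the labels. The authors used RMA (background correction, quantile normalization, summary of probes), per the submitters' processing notes, and deposited values taken here as log2. The software, its version and the centring seen in the values are not described by the sources used here. RMA compresses differences of dim probe sets, and without levels no filter on signal could be set. Symbols are those of the platform annotation. Of all probe sets, 41097 had 1 symbol and were used, 1801 had several and 11777 were unnamed here. All 31 measured members kept their symbol in RefSeq by Entrez identifier.

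Arrays were subtracted from each other probe set by probe set, the median over a gene's probe sets was its value, and the median of all 19775 genes was subtracted (Python 3.11.15, pandas 2.3.3). The cutoff was 2-fold, an absolute log2 difference of 1. The arithmetic was tested on simulated data with planted differences and independent noise. That test says nothing about the error of these arrays. The members and gene lists were chosen with earlier results of these data known. All members are named; members past 2-fold are described in full, and at most 4 genes past it per list and comparison are named otherwise. Alternatives were no centring, the mean over probe sets, leaving out probe sets ending in _s_at or _x_at, and a cutoff of 1.5-fold. A planned comparison of protein sequences was not run.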

Additional observations from a re-analysis of the deposited data

How the results depend on the processing

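With 1 array per group, no alternative measures the error between cultures, and no signal over background is known. No paired analysis was possible because each group had 1 array. Without centring, 2 members (PHLDA1 and DUSP11) instead of 0 were at least 2-fold higher for tamoxifen minus vehicle, and the member median moved from -0.074 to 0.029 there and from 0.020 to 0.14 for tamoxifen minus estradiol. With probe sets averaged, 1 member instead of 3 (DUSP5) was at least 2-fold lower for tamoxifen minus vehicle. Without the _s_at and _x_at probe sets, 6 instead of 3 members were lower for estradiol minus vehicle, 5 instead of 3 lower and 1 instead of 0 higher for tamoxifen minus vehicle. This alternative left 28 members. For these changes of processing, the share of all genes past 2-fold was not computed. The changed counts therefore cannot be read as particular to the members. At a cutoff of 1.5-fold, 5 members were lower and 2 higher for estradiol minus vehicle, and 3 higher for tamoxifen minus vehicle. The other counts and medians of members stayed within 1.5 times the value given or within 0.1. Of single genes, 6 values moved by more than the pooled SD between probe sets, all of them without the _s_at and _x_at probe sets (DUSP8 and DUSP3 against vehicle, ETV1 for tamoxifen minus vehicle and ETV4 between the treated arrays), and no value past 2-fold changed sign.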

Other observations

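The members' genes span a median of 14.6 kb in RefSeq, against 24.7 kb for 19738 genes with a known span. Across genes, which are not independent replicates and share their arrays, the Spearman correlation of span with the estradiol minus vehicle difference was 0.040 over the 31 members and 0.21 over those 19738 genes. The values for tamoxifen minus vehicle were -0.045 and 0.20.

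The 9 probe sets of the first set of bacterial hybridisation spikes read lower on the tamoxifen array than on the estradiol array, by a median difference of -3.16 (from -4.23 to -1.86), as deposited. The 9 probe sets of the r2 set for the same spikes read higher there, with a median difference of 0.49 (from 0.15 to 0.64). Against vehicle, the first set differed by -0.076 on the estradiol array and by -3.23 on the tamoxifen array. For tamoxifen minus estradiol, as deposited, the 31 measured feedback genes lay between -0.26 (DUSP7) and 0.67 (DUSP5).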
